A study of Mus musculus with 4 samples.

Results

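The Ly6 genes described here are 9 of the 23473 gene rows in a table of RNA-seq read counts from cells labelled MIN6. The genes are Ly6a, Ly6c1, Ly6c2, Ly6d, Ly6e, Ly6h, Ly6i, Ly6k and Lynx1. They were taken by matching these symbols to the gene names of the table, and the set was put together with its fold changes between the groups in view. The values of the 9 genes are therefore a description without p-values. How many were past the threshold is given as a count beside the share of all genes, and it is no test of the set. All 9 had a row, and 4 of them had enough counts to enter a fit across 11024 genes.

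MIN6 is a mouse insulinoma line that serves as a stand-in for pancreatic beta cells. TLX, encoded by Nr2e1, is an orphan nuclear receptor best known from neural stem cells. There were 2 libraries of cells labelled MIN6 that stably overexpress TLX and 2 of cells labelled as MIN6 wild-type controls. All were grown in 25 mM glucose with 15% serum. Whether the TLX cells are 1 clone or a pool, which vector or promoter drives TLX, and whether replicates came from separate cultures is not given in the sources used here, so p-values measure the spread between these libraries, which may be technical.

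Ly6 proteins are small and rich in cysteines, fold into the three-finger shape also seen in snake toxins, and are mostly held on the outer cell surface by a glycosylphosphatidylinositol (GPI) lipid anchor. Their genes lie in a cluster on mouse chromosome 15. Sca-1, the product of Ly6a, is the antigen by which mouse blood stem cells are commonly sorted, and several family genes respond to interferon.

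Part of the family is so alike in sequence that short reads can match more than one gene. The first 120 bases of the coding sequence (GENCODE transcripts on GRCm38, all from chromosome 15) show this for the 4 closest members, with capitals at bases that differ from Ly6a.
Ly6a: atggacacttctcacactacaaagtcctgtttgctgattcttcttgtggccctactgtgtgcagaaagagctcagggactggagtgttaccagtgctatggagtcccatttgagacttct
Ly6i: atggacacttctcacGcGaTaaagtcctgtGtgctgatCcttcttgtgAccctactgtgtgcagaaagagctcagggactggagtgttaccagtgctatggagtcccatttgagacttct
Ly6c1: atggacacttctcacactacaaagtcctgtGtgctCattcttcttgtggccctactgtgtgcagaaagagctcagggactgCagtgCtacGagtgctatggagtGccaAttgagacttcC
Ly6c2: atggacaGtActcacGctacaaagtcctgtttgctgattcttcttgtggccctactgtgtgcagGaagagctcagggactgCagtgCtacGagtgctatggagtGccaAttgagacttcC
Over these 120 bases Ly6i differs from Ly6a at 6 positions, Ly6c1 at 8 and Ly6c2 at 10. Over the whole coding sequence, identity with Ly6a is 86.3% for Ly6i, 81.8% for Ly6c1 and 81.6% for Ly6c2, and Ly6c1 and Ly6c2 are 97.7% identical to each other. Ly6e (49.3%) and Lynx1 (49.0%) are far from Ly6a. Of all stretches of 50 bases in the longest transcript, 91 of 906 in Ly6a also occur in another gene, against 292 of 795 (36.7%) in Ly6c1, 255 of 773 (33.0%) in Ly6c2 and 55 of 1107 (5.0%) in Ly6i. None of those of Ly6d, Ly6e, Ly6h, Ly6k or Lynx1 is shared. How reads with several matches were counted and how long the reads were is not given in the sources used here, so the split of counts among Ly6a, Ly6c1, Ly6c2 and Ly6i is uncertain.

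The libraries held 8490145 and 8136185 counts in gene rows for TLX and 8435976 and 9788646 for control. Nr2e1 stood at 338 and 281 counts in the TLX libraries, against 8 and 10 in the control libraries (log2 fold change 5.22, SE 0.20, edgeR adjusted p = 3.18e-14). Markers of the labelled cell type were low in all 4 libraries. Of 10 beta cell markers, 6 were at 0 counts (Iapp, Nkx6-1, Slc2a2, Neurod1, Chga and Pcsk1), 9 averaged under 5 CPM (CPM, a gene's share of the library's counts put on a common scale, here with library sizes scaled by the TMM method), and Ins1 averaged 9.54 CPM. Of 10 mesenchymal markers, Col1a2 averaged 3523, Vim 1716 and Col1a1 229 CPM, while 5 averaged under 5 CPM (Col3a1, Dcn, Thy1, Acta2 and Lum, with Lum at 0). MIN6 is the name given in the sample labels. The beta cell markers do not bear that name out, and the identity of the cells was not tested. In bulk RNA a difference in the number of cells of a kind and a difference in RNA per cell cannot be told apart.

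The family's RNA was nearly all Ly6e, while the gene that differed most between TLX and control was Ly6a. Ly6e took 97.6% of all counts of the 9 genes, which summed to 31245 in the TLX libraries and 30772 in the control libraries. Ly6a was 3.99-fold higher with TLX, Ly6c1 1.72-fold, Lynx1 1.37-fold and Ly6e 1.1-fold. In each of these 4 genes both TLX libraries lay above both control libraries. The share of all genes without overlap was not counted, so there is no background to set beside this. Genes that missed the threshold show a lack of overlap in either direction as well. Among them were Tmed2, Msln, Prnp and Gpc1 (log2 fold changes of 0.09, 0.09, -0.12 and -0.10). As the set was chosen on this contrast, nothing is read from the lack of overlap. The other 5 members had 0 to 3 counts in any library. Of the 4 genes fitted, Ly6a and Lynx1 were past the threshold of an adjusted p under 0.05 (edgeR quasi-likelihood test), as were 7.79% of all 11024 genes in the upward direction, and 0 of the 4 were lower, against 9.04% of all genes. Because the genes were chosen on this contrast, nothing is read from that count, which was 1 with DESeq2, without control replicate 2 and without TLX replicate 2. The median log2 fold change was 0.62 over the 4 genes and 0.001 over all genes tested. The choice of genes shaped this median too, and nothing is read from it.

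**Figure D1:**
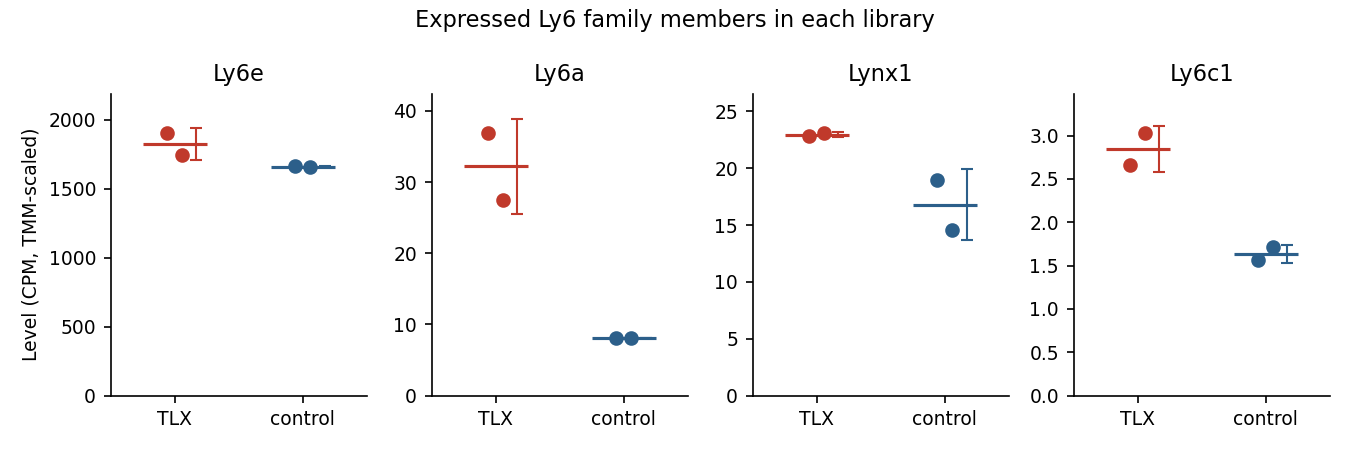
Level of the 4 expressed Ly6 genes in CPM (y axis, from 0, with its own scale in each panel) in TLX and control libraries. Points are single libraries, long lines the mean of 2 and error bars the SD; Ly6a stands at 36.9 and 27.5 CPM with TLX, against 8.15 and 8.06 CPM in control.

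Ly6a encodes Sca-1, a marker of blood and mesenchymal stem and progenitor cells in the mouse and also of activated lymphocytes. It was counted 319 and 218 times in the TLX libraries and 68 and 80 times in the control libraries. Its level was 36.9 and 27.5 CPM with TLX, against 8.15 and 8.06 CPM in control. Both TLX libraries stood far above both controls. The TLX mean was 32.2 ± 6.6 CPM and the control mean 8.1 ± 0.063 CPM (SD, n = 2 each), a difference of 1.99 on the log2 scale (SE 0.15). The TLX libraries differed 1.34-fold between themselves, whereas the control libraries differed 1.01-fold. By the size of its log2 fold change Ly6a ranked 5 of 11024 genes from the top.

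Ly6e, first described as a thymic shared antigen, is expressed in many tissues. It had 16456 and 13816 counts in the TLX libraries, against 13854 and 16433 in the control libraries. After scaling, its level was 1903 and 1743 CPM with TLX, against 1660 and 1655 CPM in control. The groups did not overlap, but the gap between them was smaller than that between the TLX libraries. On the log2 scale Ly6e was higher by 0.14 (SE 0.09), and by 0.07 without TLX replicate 1.

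Ly6c1 and Ly6c2 encode the near-identical Ly6C antigens, which mark monocytes and some lymphocytes and endothelial cells. Ly6c1 had 23 and 24 counts in the TLX libraries, against 13 and 17 in the control libraries. Its level was 2.66 and 3.03 CPM with TLX, against 1.56 and 1.71 CPM in control, with no overlap of the groups. The log2 fold change of Ly6c1 was 0.78, with an SE of 0.32 that reflects these low counts. Ly6c2 had 3 and 2 counts in the TLX libraries and 1 and 0 in the control libraries, too few for a fold change.

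Lynx1 belongs to the branch of the family that binds nicotinic acetylcholine receptors, and it is known as a brake on these receptors in the brain. It had 197 and 183 counts in the TLX libraries and 159 and 145 in the control libraries. Its level was 22.8 and 23.1 CPM with TLX, against 19.0 and 14.6 CPM in control. The TLX libraries lay close together and above both controls, which stood 1.3-fold apart. The log2 fold change was 0.46 (SE 0.13). It was 0.65 without control replicate 1 and 0.27 without control replicate 2.

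The remaining members are known from other tissues: Ly6d from B lymphocyte precursors and epithelia, Ly6h from the brain and Ly6k from the testis. Ly6i had 1 and 2 counts in the TLX libraries, against 0 and 2 in the control libraries. Ly6d had 0 and 1 counts in the TLX libraries and 0 and 0 in the control libraries. Ly6h and Ly6k were at 0 in all 4 libraries. At 0 counts a library still allows 0.302 to 0.379 CPM, the value of 3 counts, for counting error only.

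Per kilobase of feature length, on which genes can be compared, Ly6e was far above the other members. Its level was 792 ± 49 CPM per kilobase with TLX and 720 ± 1.5 in control (SD, n = 2 each), and its mean ranked 102 of the 23473 gene rows. Ly6a followed at 32.1 ± 6.6 CPM per kilobase with TLX and 8.08 ± 0.063 in control. Lynx1 stood at 5.8 ± 0.055 CPM per kilobase with TLX and 4.26 ± 0.8 in control, and Ly6c1 at 1.73 ± 0.16 with TLX and 0.994 ± 0.066 in control. Each of these 4 differed from its neighbour in the order by more than their SDs in both groups. Below them, Ly6c2 had 0.374 ± 0.084 CPM per kilobase with TLX and 0.0748 ± 0.11 in control, and Ly6i 0.21 ± 0.11 with TLX and 0.115 ± 0.16 in control. Levels this low rest on single reads, and the order of Ly6c2 and Ly6i was not the same in both groups.

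**Figure D2:**
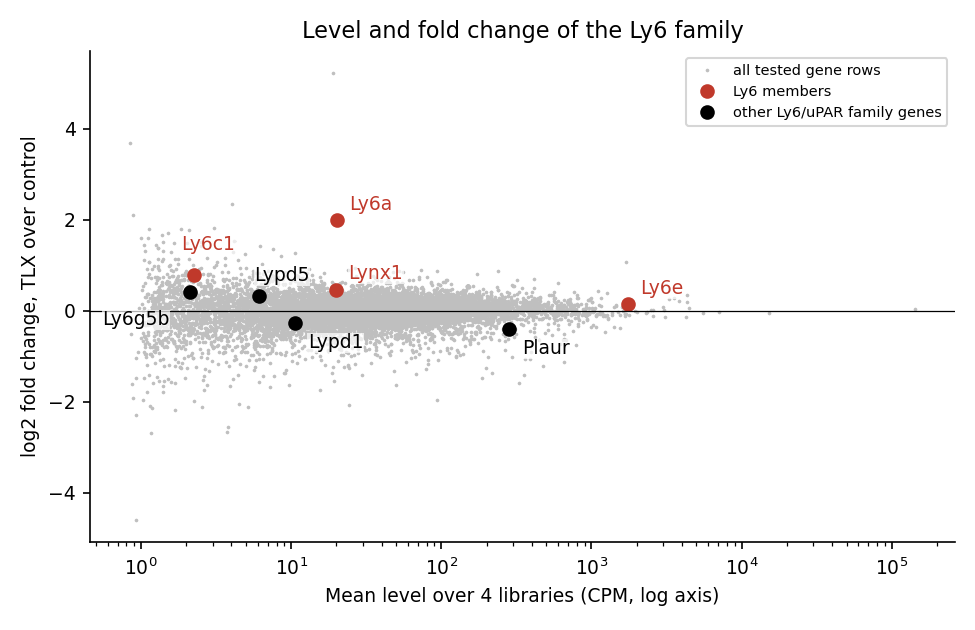
Mean level over the 4 libraries (x axis, CPM, log scale) against the log2 fold change of TLX over control (y axis) for all 11024 tested gene rows in grey, the 4 tested Ly6 members in red and 4 tested genes of the wider Ly6/uPAR family in black. Ly6a at 1.99 lies above the bulk of genes of its level, and Ly6e at 0.14 lies among the most abundant genes.

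The pattern over the 4 libraries of the 3 members averaging at least 5 CPM, Ly6a, Ly6e and Lynx1, was compared with that of 9643 genes averaging at least 5 CPM, by the Euclidean distance of log2 CPM centred on each gene's mean. The 5 genes nearest to Ly6a were Fam46b (distance 0.67), Gprc5b (0.71), Apln (0.77), Hspa8 (0.92) and Tmem179 (0.98). Fam46b, for example, had 9.37 and 8.71 CPM with TLX, against 2.87 and 3.83 CPM in control, a log2 fold change of 1.41 beside the 1.99 of Ly6a. Nearest to Ly6e were Man2b2, Metap2, Tmem9b, Commd3 and Grk5, at distances of 0.01 to 0.02. Nearest to Lynx1 were Podnl1, Klhl30, Serpinb8, Rasgrp4 and Wdr70, at 0.05 to 0.08. With 4 libraries, likeness says little more than that the genes share a fold change and its spread. No gene lay as near to Ly6a as several did to Ly6e and Lynx1. That was largely fixed in advance, since Ly6a ranked 5 of 11024 genes by log2 fold change and few could lie near it. Nothing is read from it.

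From Lynx1, the first member in chromosomal order, to Ly6h, the last, RefSeq lists 23 protein-coding genes, of which 15 had a row and 4 had enough counts to be tested. Those 4 were Lynx1, Ly6e, Ly6a and Ly6c1, all of them members. Ly6a lies between Ly6i, with 5 counts over the 4 libraries, and Ly6c1. The steroid enzyme genes Cyp11b1 and Cyp11b2, which lie inside the cluster, were at 0.

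**Figure D3:**
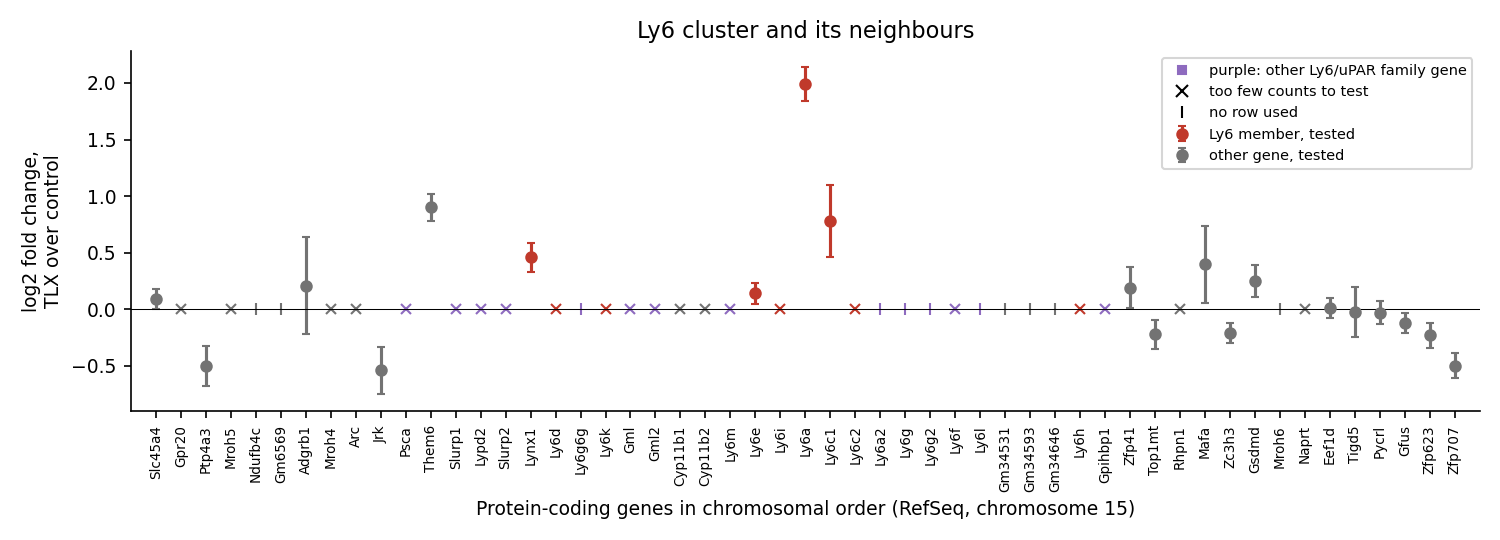
Log2 fold change of TLX over control with its SE (y axis) for 53 protein-coding genes of chromosome 15 in their RefSeq order (x axis, not to scale), members in red, other Ly6/uPAR family genes in purple and other genes in grey. The 4 tested members lie between 0.14 and 1.99; crosses mark genes with too few counts and ticks genes with no row used, both drawn at 0.

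Of the 44 other genes in a window that reaches 15 genes to either side of the members, 16 were tested, and 1 was higher and 1 lower with TLX (edgeR adjusted p under 0.05, as for 16.8% of all genes in either direction). Their median log2 fold change was -0.03. Them6, a thioesterase superfamily gene 4 places before Lynx1, had 32.1 and 29.8 CPM with TLX, against 15.5 and 17.6 CPM in control, with no overlap. It rose by 0.90 on the log2 scale (SE 0.12, edgeR adjusted p = 1.15e-05). Zfp707, a zinc finger gene at the far end of the window, had 25.2 and 25.0 CPM with TLX, against 36.5 and 34.4 CPM in control, and fell by 0.50 (SE 0.11, edgeR adjusted p = 0.00217). Among the most abundant neighbours that did not pass, Eef1d had a log2 fold change of 0.01, Slc45a4 of 0.09, Tsta3 of -0.12 and Zc3h3 of -0.21. The count of lower neighbours was 4 without control replicate 2.

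RefSeq promoter windows, from 250 bases before to 50 after a start, were at hand for Ly6c1 and Ly6c2, with 2 windows each. The TLX core motif AAGTCA was found 2 times, on either strand, in 1 window of Ly6c1 and 1 time in 1 window of Ly6c2, and 15.1% of all 32851 windows hold it. The STAT motif TTCNNNGAA (8.3% of windows) and the interferon element core GAAANNGAA (8.6%) had 0 matches in these 4 windows. A match of letters is a description and shows no binding.

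The wider Ly6/uPAR family, most of whose products share the three-finger fold, was mostly silent. Of 42 genes listed, 35 had a row, 18 of these were at 0 in all libraries and 4 were tested. Plaur, the receptor of the protease urokinase, is the most abundant of them. It had 249 and 239 CPM with TLX, against 316 and 333 CPM in control, with no overlap. Plaur fell by 0.41 on the log2 scale (SE 0.08, edgeR adjusted p = 0.000468), the opposite direction to Ly6a. Lypd1 had a log2 fold change of -0.28, Lypd5 of 0.32 and Ly6g5b of 0.42, none past the threshold (edgeR adjusted p of 0.343, 0.393 and 0.432). No gene of this list was higher in edgeR (0 also at an unadjusted p under 0.05, in DESeq2 and in limma-voom; in DESeq2, 1 of the 4 had no adjusted p). Without control replicate 2 the list had 1 higher, Lypd5, and without TLX replicate 2 it had 2 lower, Lypd1 and Plaur.

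The anchor itself is built in the endoplasmic reticulum by the PIG enzymes, attached by a transamidase and then remodelled. Of 35 such genes, 34 were tested: 1 rose, 2 fell and 31 missed the threshold, so that 8.82% were called, against 16.8% of all genes. Their median log2 fold change was -0.07. Pigt, a transamidase subunit, had 165 and 160 CPM with TLX, against 146 and 130 CPM in control (log2 fold change 0.23, SE 0.08, edgeR adjusted p = 0.0469). Dpm2 and Mpdu1, which serve the supply and use of dolichol-phosphate mannose, had log2 fold changes of -0.30 and -0.35 (edgeR adjusted p of 0.0349 and 0.0282). Tmed2 and Tmed10, which carry anchored cargo out of the endoplasmic reticulum, had 0.09 and 0.18 (edgeR adjusted p of 0.475 and 0.101). Pigk, the catalytic transamidase subunit, had 0.17, and Pigq had -0.17 (edgeR adjusted p of 0.217 and 0.232). None of the 3 calls held throughout: with DESeq2 the adjusted p was 0.164 for Pigt (0.00182 to 0.342 over the alternatives), 0.237 for Dpm2 (0.00444 to 0.237) and 0.174 for Mpdu1 (5.57e-05 to 0.251).

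Of 73 other genes of GPI-anchored surface proteins, 21 were tested: 1 rose, 1 fell and 19 missed the threshold (9.52% called, against 16.8% of all genes). Their median log2 fold change was 0.09. Bst2, the interferon-induced protein tetherin, had 481 and 429 CPM with TLX, against 376 and 315 CPM in control. The groups did not overlap, and Bst2 rose by 0.40 on the log2 scale (SE 0.09, edgeR adjusted p = 0.00255). Without TLX replicate 1 its adjusted p was 0.0972 (2.86e-10 to 0.0972 over the alternatives). Prnd, a relative of the prion protein gene, had 6 and 3 counts with TLX, against 15 and 13 in control (log2 fold change -1.47, SE 0.50, edgeR adjusted p = 0.045). That call was lost when any single library was left out, with an adjusted p of 0.0818 to 0.357. Prnp, Msln, Gpc1 and Cd14, the most abundant that did not pass, had log2 fold changes of -0.12, 0.09, -0.10 and 0.11.

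Subunits and chaperones of nicotinic receptors, the partners known for Lynx1, were hardly measured. Of 18 genes, 10 were at 0 in all libraries and 1 was tested. Chrnb1, the muscle beta subunit, had 26.9 and 26.9 CPM with TLX, against 29.6 and 28.3 CPM in control (log2 fold change -0.10, SE 0.11, edgeR adjusted p = 0.575). It did not pass in edgeR, where 0 had an unadjusted p under 0.05, nor in DESeq2 or limma-voom.

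Surface markers by which stem and progenitor cells are sorted beside Sca-1 made up another list. Of its 20 genes, 9 were tested: 0 rose, 2 fell and 7 missed the threshold (22.2% called, against 16.8% of all genes). Their median log2 fold change was 0.06. Cd44, the hyaluronan receptor, had 246 and 256 CPM with TLX, against 335 and 349 CPM in control, and fell by 0.45 on the log2 scale (SE 0.08, edgeR adjusted p = 0.000173). Pdgfrb, a growth factor receptor of mesenchymal cells, had 68 and 60 counts with TLX, against 125 and 108 in control, and fell by 0.73 (SE 0.18, edgeR adjusted p = 0.00647). Without control replicate 1 the adjusted p of Pdgfrb was 0.071 (3.3e-05 to 0.079 over the alternatives). Itgb1, Cd34, Itga6 and Procr had log2 fold changes of 0.15, 0.05, 0.12 and 0.06 and did not pass. No marker was higher in DESeq2 or limma-voom or at an unadjusted p under 0.05 in edgeR (0 of 9), but 1 was without control replicate 2.

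Interferon is a known inducer of Ly6a and Ly6e, and its ligands, receptors and signal transducers were counted as a list. Of 19 genes reported, 17 were tested: 1 rose, 1 fell and 15 missed the threshold (11.8% called, against 16.8% of all genes). Their median log2 fold change was 0.04. Stat2, a transcription factor of the interferon pathway, had 132 and 132 CPM with TLX, against 94.0 and 97.8 CPM in control, and rose by 0.46 on the log2 scale (SE 0.08, edgeR adjusted p = 0.00023). The count of higher genes was 2 without control replicate 1 or 2. The receptor gene Ifngr2 had 27.2 and 27.4 CPM with TLX, against 33.1 and 36.4 CPM in control, and fell by 0.35 (SE 0.11, edgeR adjusted p = 0.0253), but its adjusted p was 0.212 with DESeq2 (0.00441 to 0.212 over the alternatives). Usp18, Stat3, Jak1 and Ifnar1 had log2 fold changes of 0.12, 0.05, 0.23 and -0.01 and did not pass.

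**Figure D4:**
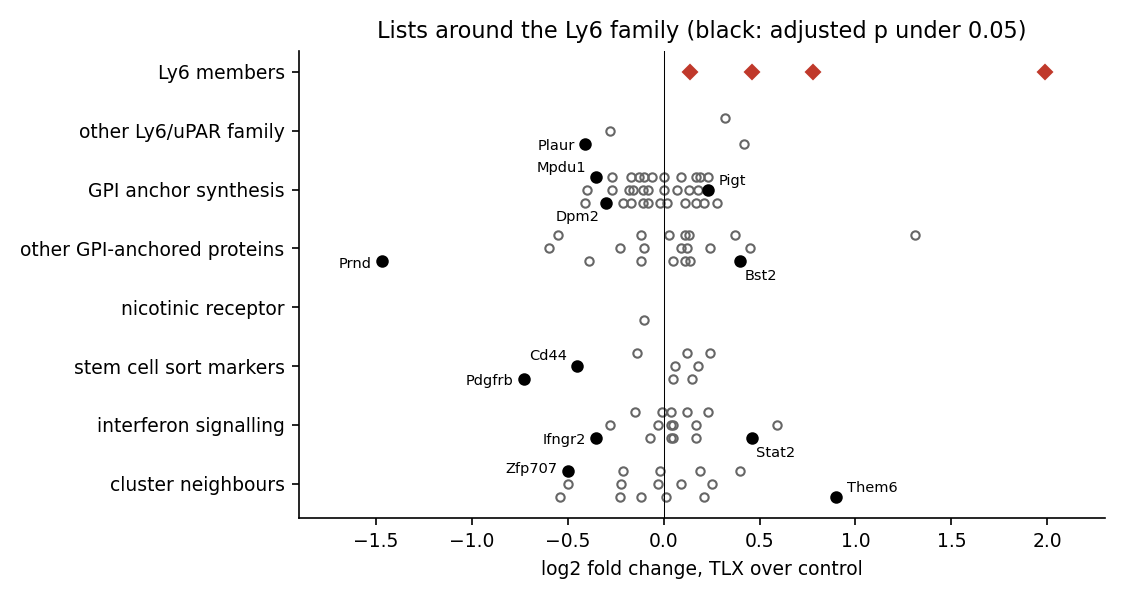
Log2 fold change of TLX over control (x axis) for the tested genes of each list (rows); black points passed at an adjusted p under 0.05 in edgeR, open points did not, and red diamonds are the 4 tested members, shown without a test. Points are staggered vertically for legibility; Ly6a at 1.99 lies to the right of every listed gene.

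Other cells in which Ly6 antigens are known were looked for by their markers. The 10 endothelial markers summed to 4.74 and 2.78 CPM with TLX, against 2.64 and 3.22 CPM in control, all were under 5 CPM on average, and Cldn5 and Emcn were at 0. The 11 leukocyte markers with a row summed to 103 and 105 CPM with TLX, against 120 and 122 CPM in control. Of these 8 were under 5 CPM and Emr1, Ccr2 and Fcgr3 at 0, and nearly all of the sum came from Cd68, Cd14 and Lyz2. Cd68 had 374 and 360 counts with TLX, against 494 and 677 in control. Cd14 had 373 and 332 counts with TLX, against 360 and 359 in control, and Lyz2 had 142 and 134, against 145 and 172. The 10 mesenchymal markers summed to 5981 and 5837 CPM with TLX, against 5226 and 4925 CPM in control. Nearly all of that sum came from Col1a2 and Vim, 5 of the 10 were under 5 CPM with Lum at 0, and Col1a1 had 1874 and 1740 counts with TLX, against 2217 and 2129 in control. Pdgfrb, of the same list, was lower, as given above. The part of these transcripts in the level of Ly6a was not tested. The 7 duct and epithelial markers summed to 61.4 and 58.8 CPM with TLX, against 79.5 and 81.6 CPM in control, with Krt19 and Epcam at 0. They did not move together. Sox9 had 89 and 84 counts with TLX, against 211 and 285 in control, and Krt18 had 409 and 353, against 443 and 518. Krt7 went the other way, with 27 and 26 counts with TLX, against 10 and 7 in control. So did Krt8, with 5 and 3 counts, against 0 and 0.

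**Figure D5:**
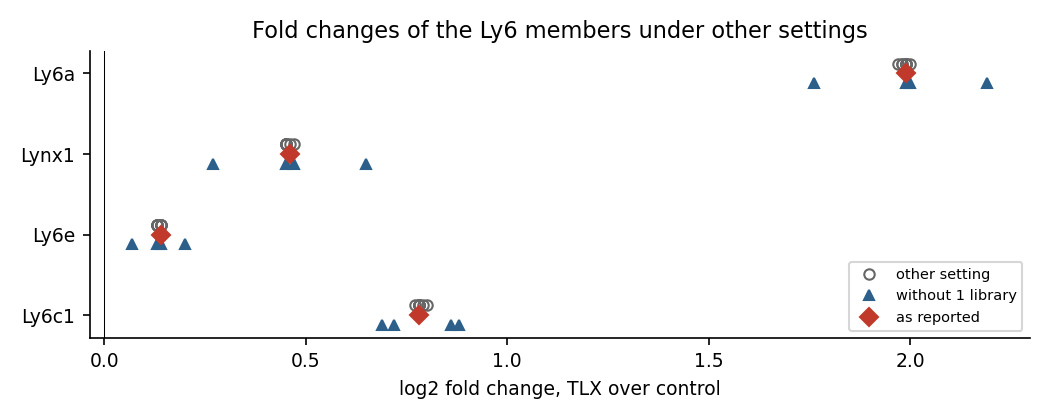
Log2 fold change of TLX over control (x axis) of the 4 tested members (rows) as reported (red diamonds), under other settings of the fit (open circles) and with 1 library left out (blue triangles). Ly6a stays between 1.76 and 2.19, and Lynx1 spreads from 0.27 to 0.65 with 1 library left out.

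Each member's fold change was fitted again under other settings, and all stayed positive. Both TLX libraries lay above both controls in each of them. Leaving 1 library out could therefore hardly turn the sign, and only the size of the change is informative. Ly6a was at 1.76 without TLX replicate 1 and 2.19 without TLX replicate 2, and at 1.97 to 2.0 under the settings that keep all libraries. Ly6c1 ranged over 0.69 to 0.88 and Ly6e over 0.07 to 0.20 with 1 library left out.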

How the data were processed

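RNA-seq counts were analysed for 2 TLX and 2 control libraries of cells labelled MIN6. The authors deposited 1 table of raw read counts, with feature lengths and without normalization, per the file headers. TopHat2 2.0.13 and mm9 are named per the submitters' processing notes; the counting program, annotation, use of strand and treatment of reads with several matches were not given in the sources used here. Rows named after cDNA clones, 33353 in all with 23.3% to 25.1% of counts, entered neither library sizes nor tests.

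On the 23473 gene rows, filterByExpr with a minimum count of 10 set the genes tested, TMM the scaling, and edgeR 4.0.16 the test of TLX over control (quasi-likelihood F-test, 2 residual degrees of freedom, Benjamini-Hochberg adjustment over 11024 genes, threshold 0.05) in R 4.3.3. CPM uses TMM-scaled library sizes, and SDs are over 2 libraries. Sequences and gene order come from GENCODE and RefSeq of GRCm38, a build other than mm9, so no coordinates are given.

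The members and lists were chosen with earlier results of these data known. Genes named are all members, each list's called genes (up to 4 of smallest p) with up to 4 abundant genes not called (1 gene of the interferon list is not reported here), the 5 genes most like each member averaging at least 5 CPM, and Nr2e1. Marker genes and silent cluster genes named beside them were chosen after their values were seen. Alternatives were DESeq2 1.42.0 (size factors, Wald test), limma 3.58.1 (voom), total counts, no filter, a 10 CPM filter, a replicate block and leaving out each library. Fits with clone rows and without Rn45s and Lars2 were added after the data were seen.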

Additional observations from a re-analysis of the deposited data

How the results depend on the processing

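The direction of all 4 fitted Ly6 genes and of the 12 list genes called held under each alternative that gave a value. A filter of 10 CPM gave none for Ly6c1 or Prnd. In none of these genes did the groups overlap, so a held direction was largely fixed in advance. With 1 library left out the log2 fold change ranged over 1.76 to 2.19 for Ly6a, 0.69 to 0.88 for Ly6c1, 0.07 to 0.20 for Ly6e and 0.27 to 0.65 for Lynx1. Of the 12 called list genes, 5 (Cd44, Plaur, Stat2, Them6 and Zfp707) passed under every alternative and 7 were lost under at least 1. The cause of the shifts in counts given here was not tested.

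With DESeq2's Wald test, which gave no adjusted p for 855 genes, 355 genes were higher and 484 lower, against 859 and 997 in edgeR. By that test 1 Ly6 member was higher, 0 anchor genes were higher and 0 lower, 1 sorting marker was lower and 0 interferon genes were lower. Of other anchored proteins 0 were lower, but 6 of the 21 tested, Prnd among them, had no adjusted p. Total counts gave 0 anchor genes higher, 2 other anchored proteins higher and 3 neighbours lower. Without a filter 2 other anchored proteins were higher and 0 lower, 2 interferon genes higher and 3 neighbours lower. The 10 CPM filter left out Prnd (mean 1.04 CPM), the only other anchored protein called lower, so that 0 were lower. With limma-voom 2 other anchored proteins were higher. With clone rows included, 0 anchor genes were higher and 0 other anchored proteins lower.

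The replicate numbers were not shown to pair the libraries: with 2 pairs, replicate differences correlated at 0.108 over 11024 genes. With the replicate block 1495 genes were higher and 1487 lower, 2 anchor genes, 2 other anchored proteins, 1 sorting marker and 3 interferon genes were higher, and 3 neighbours were lower; Ly6a was at 1.98 and Lynx1 at 0.45.

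With 1 library left out, counts of genes higher and lower ranged over 388 to 993 and 585 to 1060 for all genes, the low ends without TLX replicate 2 and 1. Ranges for higher and lower were 1 to 2 and 0 to 0 for Ly6 members, 0 to 1 and 1 to 2 for the wider family, 0 to 2 and 0 to 1 for anchor genes, 0 to 3 and 0 to 0 for other anchored proteins, 0 to 1 and 1 to 2 for sorting markers, 1 to 2 and 0 to 1 for interferon genes, and 1 to 2 and 1 to 4 for neighbours. Depth limits Ly6c1, Ly6c2, Ly6d and Ly6i, which have under 30 counts in every library.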
